A study of Rattus norvegicus with 6 samples.

Results

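Of the genes measured in the livers of 6 male rats, 10 encode transcription factors that sense foreign chemicals, bile acids, sterols and hormones or that hold the hepatocyte programme: Nr1i2 (PXR), Nr1i3 (CAR), Ahr, Rxra, Nr1h4 (FXR), Nr1h3 (LXR alpha), Nr0b2 (SHP), Hnf4a, Nr5a2 (LRH-1) and Esr1. They were chosen by name, and every non-control probe whose array annotation led to 1 of these symbols was taken, which gave 20 of 61657 probes. Of these, 19 probes of 9 genes were bright enough to be tested, out of 27642 genes tested on the array. That total counts every name on the array as a gene, and 10982 of them had a gene symbol. To be tested, a probe had to stand well above background in every array of corn oil or of TCEP, which the single Esr1 probe did not.

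The rats were Sprague-Dawley (Crl:CD(SD)) males bought at an age of 5 weeks and kept on a basal diet. One group of 3 animals received corn oil alone, and the other group of 3 received the flame retardant tris(2-chloroethyl) phosphate, or TCEP, at 400 mg/kg/day. The treatment protocol gives 9 weeks of dosing for both groups, while the design text speaks of 28 days, and the sources used here do not settle which holds. Total liver RNA of each animal was hybridised to a 1-colour Agilent array, so each group had 3 arrays and this small number limits the precision of every difference. No untreated group and no lower dose are part of the comparison.

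Nuclear receptors bind small lipid-soluble ligands and switch genes on or off from DNA sites built around a short hexamer, many of them as pairs with RXR. CAR and PXR respond to drugs and other foreign chemicals and control cytochrome P450 genes of drug metabolism, and CAR waits in the cytosol until it is released. FXR senses bile acids and, by way of SHP, a receptor-like protein that lacks a DNA-binding domain, lowers the transcription of the bile acid enzyme Cyp7a1. LXR senses oxidised cholesterol, HNF4A and LRH-1 maintain hepatocyte gene expression, and ESR1 binds oestrogen. Ahr belongs to another family, the bHLH-PAS factors, and is described here because it senses planar aromatic chemicals in the same cells. The activity of these proteins depends on ligands, location and partners, so an mRNA level measures the amount of message alone.

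The 6 arrays had between 57.2% and 64.4% of non-control probes well above background. Corn oil replicates 1 and 3 shared a slide, and corn oil replicate 2 lay on another slide and was scanned 23 days after the rest. The TCEP arrays all lay on the remaining slide. No slide held both groups, so slide and treatment cannot be told apart in any difference between the groups. All 8 hepatocyte markers were measured, and their summed signal, in multiples of each array's 75th percentile, was 6550 to 6970 in corn oil and 5950 to 6690 in TCEP. The same sum over 12 macrophage markers was 115 to 257 in corn oil and 156 to 189 in TCEP, and 4 of 6 markers of pancreas, another tissue with LRH-1, had no array well above background. The pancreas markers that were measured, Amy2a3 at -0.63 ± 0.22 and Ctrb1 at -0.33 ± 0.17 (log2 difference, TCEP minus corn oil, SE), had lower means in TCEP. The groups of Amy2a3 did not overlap, where 7.06% of all genes were lower without overlap. In whole liver RNA, fewer cells of a type and less RNA per cell cannot be told apart. The part of cell makeup in the receptor values was not tested.

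None of the 9 measured receptor genes passed the adjusted threshold of 0.05, and neither did any other gene. The smallest adjusted p was 0.531 among the receptors and 0.291 over all 27642 genes (limma, Benjamini-Hochberg), so the percentage called was 0%. At an unadjusted p under 0.05, 1 receptor gene, Nr1h4, was counted, with 0 lower, where 9.2% of all genes met that criterion, 5.01% higher and 4.19% lower. The groups of 1 receptor gene did not overlap, with TCEP higher, and 0 were lower without overlap, against 17.4% of all genes, 10.3% higher and 7.06% lower. Of the 9 genes 3 had a higher and 6 a lower mean in TCEP, with a median difference of -0.10 on the log2 scale, where the median of all genes was 0.00 and 50.9% had a higher mean. A count of 1 in 9 genes is close to these background shares, and nothing is read from it.

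**Figure D1:**
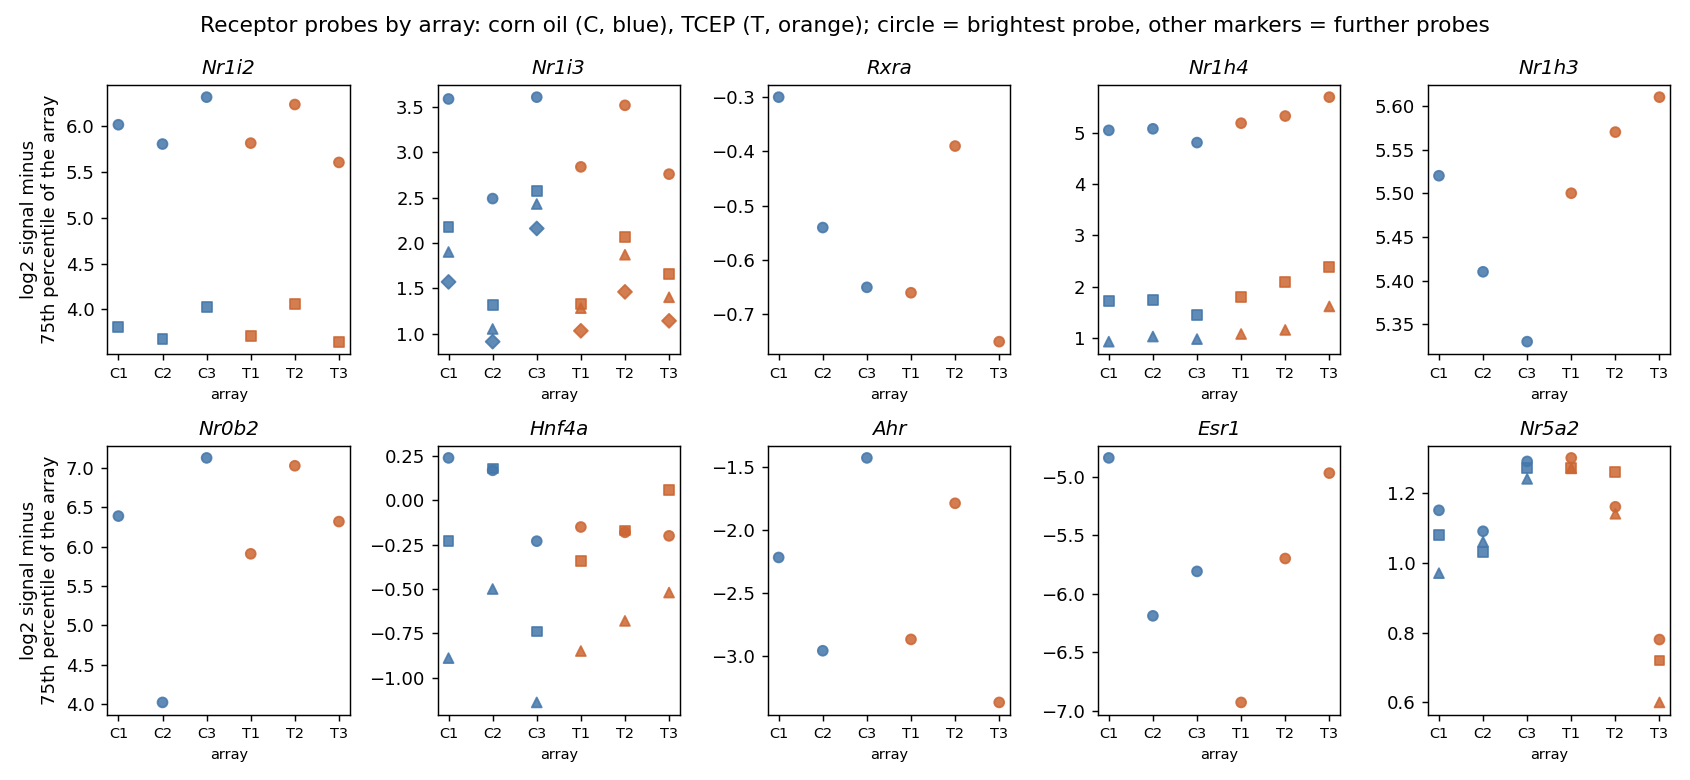
Value of each receptor probe on each array, as log2 signal minus the array's 75th percentile, with corn oil arrays (C) in blue, TCEP arrays (T) in orange, the brightest probe as a circle and further probes as other markers. Each panel has its own y axis; the 3 probes of Nr1h4 have all TCEP points above all corn oil points, the low corn oil replicate 2 of Nr0b2 stands at 4.02, and the Esr1 points are not well above background on 5 of the 6 arrays.

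The drug-sensing receptors CAR and PXR had slightly lower means in TCEP, within the spread between animals. All values below are log2 of the processed signal relative to the 75th percentile of the same array, so that 0 is a probe at that percentile, and a difference is TCEP minus corn oil. Nr1i2, which encodes PXR, read 6.01, 5.80 and 6.31 in corn oil and 5.81, 6.23 and 5.60 in TCEP. The groups overlapped, and 2 of the 3 TCEP arrays lay below the corn oil mean. The difference was -0.16 ± 0.21 (SE, n = 3 and 3), with a 95% interval from -0.66 to 0.34 and an adjusted p of 0.832 (limma). Leaving out 1 array moved it between -0.33 and -0.02. The dimmer Nr1i2 probe kept nearly the same pattern, with 3.81, 3.68 and 4.03 in corn oil and 3.71, 4.06 and 3.65 in TCEP, and a difference of -0.04 ± 0.15 (SE). Values of the dimmer probes come from a limma fit of every kept probe on its own, and those of the brightest probes from the fit over genes.

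Nr1i3, which encodes CAR, was read by 4 probes. Its brightest probe gave 3.59, 2.49 and 3.61 in corn oil and 2.84, 3.52 and 2.76 in TCEP. Corn oil replicate 2 was the lowest of all 6 arrays, below every TCEP array, while the other corn oil arrays were the highest. The difference of -0.19 ± 0.36 (SE) had an interval from -1.07 to 0.70 and an adjusted p of 0.897 (limma). The further probes differed by -0.33, -0.27 and -0.33, and corn oil replicate 2 was the lowest array in each of them too. Without that array the difference of the brightest probe was -0.56, while leaving out corn oil replicate 3 gave 0.00.

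Ahr, the dioxin receptor, varied widely between arrays of both groups. It read -2.22, -2.96 and -1.43 in corn oil and -2.87, -1.79 and -3.37 in TCEP, all well above background. The lowest and highest array of a group lay 2.9-fold apart in corn oil and 3.01-fold apart in TCEP. The difference was -0.47 ± 0.52 (SE), with an interval from -1.74 to 0.80 and an adjusted p of 0.799 (limma). Leaving out 1 array moved it between -0.92 without TCEP replicate 2 and -0.09 without corn oil replicate 3.

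Rxra, the shared partner of PXR, CAR, FXR and LXR, was close in both groups. Its values were -0.30, -0.54 and -0.65 in corn oil and -0.66, -0.39 and -0.75 in TCEP. TCEP replicate 2 was the second highest of the 6 arrays and TCEP replicate 3 the lowest. The difference of -0.10 ± 0.14 (SE) had an interval from -0.45 to 0.25 and an adjusted p of 0.85 (limma). Leaving out 1 array moved it between -0.21 and 0.00.

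Nr1h4, which encodes the bile acid receptor FXR, was the receptor gene whose TCEP arrays all lay above its corn oil arrays. Its brightest probe read 5.06, 5.09 and 4.82 in corn oil and 5.20, 5.34 and 5.71 in TCEP. The gap between the highest corn oil and the lowest TCEP array was small beside the range inside the TCEP group, where the highest animal was 1.43-fold above the lowest. The difference was 0.42 ± 0.16 (SE, n = 3 and 3), a ratio of 1.34, with an interval from 0.03 to 0.82. Its limma p was 0.0375 before adjustment and 0.531 after it, so Nr1h4 did not pass the test.

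The other Nr1h4 probes gave the same order of groups. The second probe read 1.72, 1.73 and 1.45 in corn oil and 1.79, 2.09 and 2.39 in TCEP, a difference of 0.46 ± 0.17 (SE). The third probe read 0.92, 1.02 and 0.97 in corn oil and 1.07, 1.15 and 1.61 in TCEP, a difference of 0.30 ± 0.16 (SE). TCEP replicate 3 was the highest array for all 3 probes. These probes read the same 6 RNA samples, so they are no further replicates. The difference stayed between 0.28 without TCEP replicate 3 and 0.53 without TCEP replicate 1, with adjusted p from 0.424 to 0.848 over all alternatives (limma), and the unadjusted p was under 0.05 in 9 of 18 of them.

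Nr1h3, which encodes LXR alpha, had the narrowest spread over the 6 arrays. It read 5.52, 5.41 and 5.33 in corn oil and 5.50, 5.57 and 5.61 in TCEP, with a single overlap between corn oil replicate 1 and TCEP replicate 1. The difference was 0.14 ± 0.10 (SE), with an interval from -0.09 to 0.38 and an adjusted p of 0.669 (limma). With quantile normalization it was 0.03.

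Nr0b2, which encodes SHP and is itself a target of FXR, had the widest spread of the receptor genes. Its values were 6.39, 4.02 and 7.13 in corn oil and 5.91, 7.03 and 6.32 in TCEP. The corn oil arrays alone lay 8.62-fold apart, against 2.16-fold in TCEP, with corn oil replicate 2 at the bottom. That array differed from the other corn oil arrays in slide and scan day as well as in animal, and these cannot be told apart. The difference of 0.57 ± 0.80 (SE) had an interval from -1.37 to 2.51 and an adjusted p of 0.846 (limma), so neither direction could be read from it. Leaving out corn oil replicate 2 gave -0.34, and leaving out corn oil replicate 3 gave 1.21.

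Hnf4a, a constitutive factor of hepatocyte identity, had probes that disagreed in direction. Its brightest probe read 0.24, 0.17 and -0.23 in corn oil and -0.15, -0.18 and -0.20 in TCEP. The TCEP animals were within 1.03-fold of each other, and corn oil replicate 3 lay below them. The difference was -0.24 ± 0.14 (SE), with an interval from -0.58 to 0.11 and an adjusted p of 0.645 (limma). The other probes gave 0.11 ± 0.25 and 0.16 ± 0.19 (SE), and the mean over the probes gave 0.01. Without corn oil replicate 3 the brightest probe differed by -0.38, with a limma p of 0.00768 before and 0.35 after adjustment, and Hnf4a was then the 1 receptor gene under an unadjusted p of 0.05.

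Nr5a2, which encodes LRH-1, a factor that supports bile acid synthesis genes, had 1 low array in the TCEP group. Its brightest probe read 1.15, 1.09 and 1.29 in corn oil and 1.30, 1.16 and 0.78 in TCEP. TCEP replicate 3 was the lowest array for all 3 Nr5a2 probes, while TCEP replicate 1 was the highest for the brightest probe. The differences of the probes were -0.10, -0.04 and -0.08, with an adjusted p of 0.866 (limma) for the brightest and an interval from -0.48 to 0.28. Without TCEP replicate 3 the brightest probe differed by 0.05, and with normexp background correction by 0.01.

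Esr1, the oestrogen receptor alpha, gave a signal too dim for a comparison. Its probe was well above background on 1 of 3 corn oil arrays and 0 of 3 TCEP arrays, and read -4.84, -6.19 and -5.81 in corn oil and -6.93, -5.70 and -4.97 in TCEP. The groups overlapped, and no fold is given.

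**Figure D2:**
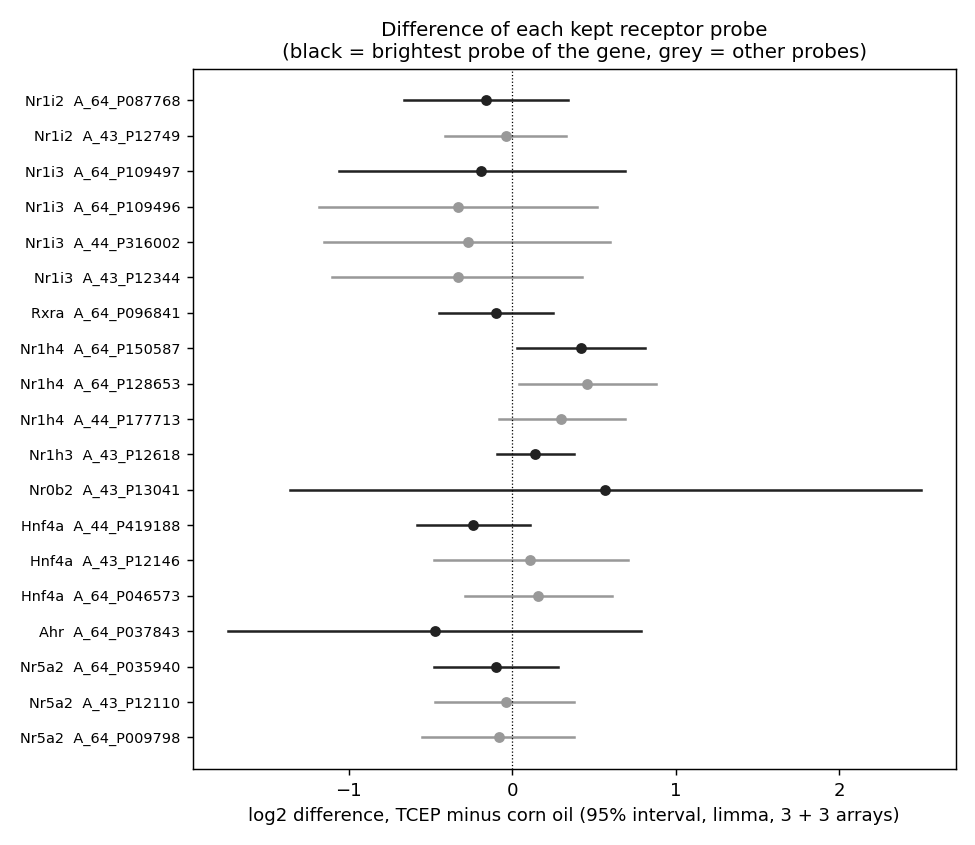
Difference between TCEP and corn oil for each kept receptor probe on the log2 scale, as a point with its 95% interval from the limma fit of every kept probe on its own over 3 and 3 arrays, with the brightest probe of each gene in black and the others in grey. The intervals of 2 Nr1h4 probes lie above 0 before any adjustment, the interval of Nr0b2 runs from -1.36 to 2.50, and the Hnf4a probes fall on both sides of 0.

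The spread between arrays of a group differed widely among the receptor genes. In corn oil this spread joins animal, slide and scan day, because replicate 2 had another slide and scan day. In corn oil the SD ran from 0.10 for Nr1h3 and Nr5a2 to 1.62 for Nr0b2, with a median of 0.25 where that of all genes was 0.19. In TCEP it ran from 0.02 for Hnf4a to 0.81 for Ahr, with a median of 0.27 where that of all genes was 0.14. Of the 5 genes with several probes, 4 had every probe on the same side of 0 and Hnf4a had not. Over the 19 kept probes 7 had a higher and 12 a lower mean in TCEP.

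For 4 of the receptor genes the arrays fell into the same low and high sets, a pattern noticed after the values were seen. Nr1i2, Nr1i3, Nr0b2 and Ahr each had corn oil replicate 2, TCEP replicate 1 and TCEP replicate 3 as their lowest 3 arrays and corn oil replicates 1 and 3 and TCEP replicate 2 as their highest. Among 27632 genes with a value on all arrays, 6.61% had the same lowest 3 arrays. The further probes of these genes, which read the same RNA and are no independent support, had the same lowest 3 arrays as well. Nr1i2 and Ahr shared the whole order, from TCEP replicate 3, corn oil replicate 2 and TCEP replicate 1 at the low end to corn oil replicate 1, TCEP replicate 2 and corn oil replicate 3 at the high end. Each set holds animals of both treatments. The low set joined corn oil replicate 2, on its own slide and the later scan day, with TCEP replicates 1 and 3. TCEP replicate 2, of the high set, shared slide and scan day with those TCEP arrays. The parts of slide, scan and RNA sample in the order were not tested.

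**Figure D3:**
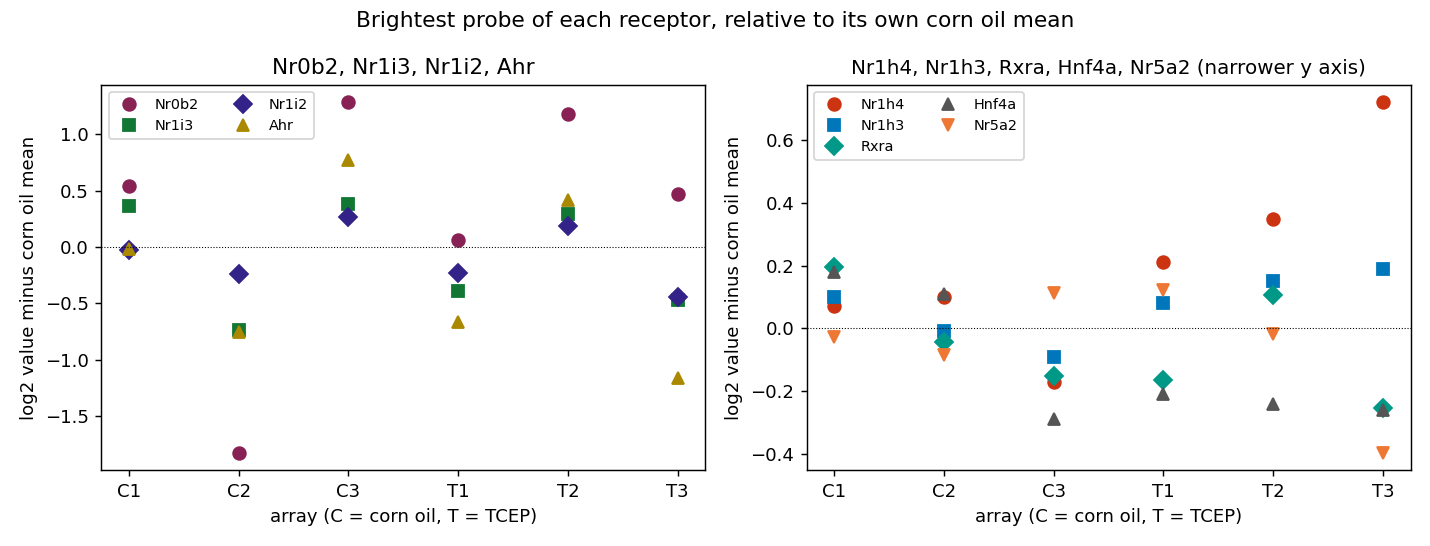
Brightest probe of each receptor gene on each array as log2 value minus the gene's own corn oil mean, for Nr0b2, Nr1i3, Nr1i2 and Ahr on the left and the other 5 genes on the right, whose y axis covers a narrower range. On the left corn oil replicate 2 (C2), TCEP replicate 1 (T1) and TCEP replicate 3 (T3) are the lowest 3 arrays of every gene; on the right the low arrays differ between genes, and Nr1h4 is above 0 in all 3 TCEP arrays.

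The sequences before the transcription start of these 4 genes are shown because of this shared order, which was seen before they were picked. Each is the 250 bases upstream of the annotated start in RefSeq, build GRCr8, read 5′ to 3′ on the strand of the gene. Nr0b2 lies at chr5:151062910-151063159 on the plus strand, Nr1i3 at chr13:86165170-86165419 on the plus strand, Nr1i2 at chr11:75965467-75965716 on the plus strand and Ahr at chr6:57998902-57999151 on the minus strand. Capitals mark matches, on either strand, to the receptor half-site AGGTCA, the AHR core GCGTG, the E-box CACGTG, the GC box GGGCGG and the TATA box TATAAA.
Nr0b2: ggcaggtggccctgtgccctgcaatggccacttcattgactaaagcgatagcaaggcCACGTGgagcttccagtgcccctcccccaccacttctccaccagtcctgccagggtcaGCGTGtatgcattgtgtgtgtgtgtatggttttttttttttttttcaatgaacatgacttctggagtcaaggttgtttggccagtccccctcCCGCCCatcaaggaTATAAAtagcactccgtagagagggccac
Nr1i3: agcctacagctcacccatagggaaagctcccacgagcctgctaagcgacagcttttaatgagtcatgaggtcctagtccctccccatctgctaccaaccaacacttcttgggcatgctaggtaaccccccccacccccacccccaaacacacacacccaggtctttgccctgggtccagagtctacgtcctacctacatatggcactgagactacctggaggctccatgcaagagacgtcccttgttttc
Nr1i2: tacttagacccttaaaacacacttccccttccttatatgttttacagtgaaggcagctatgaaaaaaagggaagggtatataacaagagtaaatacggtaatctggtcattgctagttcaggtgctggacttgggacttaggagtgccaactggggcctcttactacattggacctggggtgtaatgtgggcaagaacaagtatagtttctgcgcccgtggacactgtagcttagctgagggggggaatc
Ahr: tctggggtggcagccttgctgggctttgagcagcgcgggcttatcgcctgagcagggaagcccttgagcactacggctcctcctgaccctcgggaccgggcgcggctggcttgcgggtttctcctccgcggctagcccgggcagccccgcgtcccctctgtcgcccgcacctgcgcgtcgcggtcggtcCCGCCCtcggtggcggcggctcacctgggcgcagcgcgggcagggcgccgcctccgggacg

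The 4 windows had little in common by these letters. The Nr0b2 window held CACGTG at 193 to 188 bases before the start, GCGTG at 135 to 131, GGGCGG on the reverse strand at 43 to 38 and TATAAA at 29 to 24. The Ahr window held GGGCGG on the reverse strand at 61 to 56 bases before the start, and those of Nr1i2 and Nr1i3 held no match. Among 33469 RefSeq promoter windows of the same length, 12.9% held TATAAA, 30.5% GGGCGG, 25.9% GCGTG, 5.59% CACGTG and 14.1% AGGTCA, counted on both strands.

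In base composition the Ahr window stood at 75.2% GC with 32 CG dinucleotides, where Nr0b2 had 52.8% and 5, Nr1i3 55.6% and 4, and Nr1i2 46% and 3. The median of all windows was 51.2% GC and 5 CG dinucleotides. Over the 9 receptor genes that could be matched, 1, Nr5a2, held AGGTCA and 4 held GGGCGG. A match is a description of letters, and its absence says nothing about binding of a factor elsewhere.

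Genes whose 6 array values were closest in shape to Nr1i2, Nr1i3 and Nr0b2 were found among 10438 named genes well above background on all arrays. The measure was the root mean square difference in log2 units after each gene was centred on its own mean. For Nr1i2 the nearest were Yod1 at 0.065, Carhsp1 at 0.067 and Bach1, a haem-binding repressor, at 0.076, where the median candidate was at 0.30. For Nr1i3 they were Fasn, the fatty acid synthase, at 0.107, the coregulator Cited2 at 0.132 and Lamb3 at 0.148, with a median of 0.48.

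The genes nearest Nr0b2 were Ppara, another lipid-sensing nuclear receptor, at 0.391, the serine synthesis enzyme Psat1 at 0.475 and Camk2n1 at 0.557, with a median of 1.05. The measure grows with the spread of the gene, so these distances are not set against those of Nr1i2 and Nr1i3. Ppara ran from -0.88 in corn oil replicate 2 to 1.38 in TCEP replicate 2, so corn oil replicate 2 was its lowest array as it was for Nr0b2. Fasn, the gene nearest Nr1i3, read 1.34, 0.43 and 1.47 in corn oil and 0.52, 1.41 and 0.74 in TCEP. These likenesses cover 6 arrays and describe shape alone.

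Leaving out single arrays showed which receptor values rest on 1 array. Corn oil replicate 2 was the only array of its slide and scan day, so its omission takes out animal, slide and scan day together. Without corn oil replicate 2, the array scanned on another day, the differences were -0.28 for Nr1i2, -0.56 for Nr1i3, -0.85 for Ahr and -0.34 for Nr0b2. These 4 genes were grouped because that array is among their lowest, which by itself lowers the difference, so their shared direction is no result. Without it Nr1h4 differed by 0.47, Nr1h3 by 0.14, Rxra by -0.12, Hnf4a by -0.18 and Nr5a2 by -0.14. None of these values passed the adjusted threshold.

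**Figure D4:**
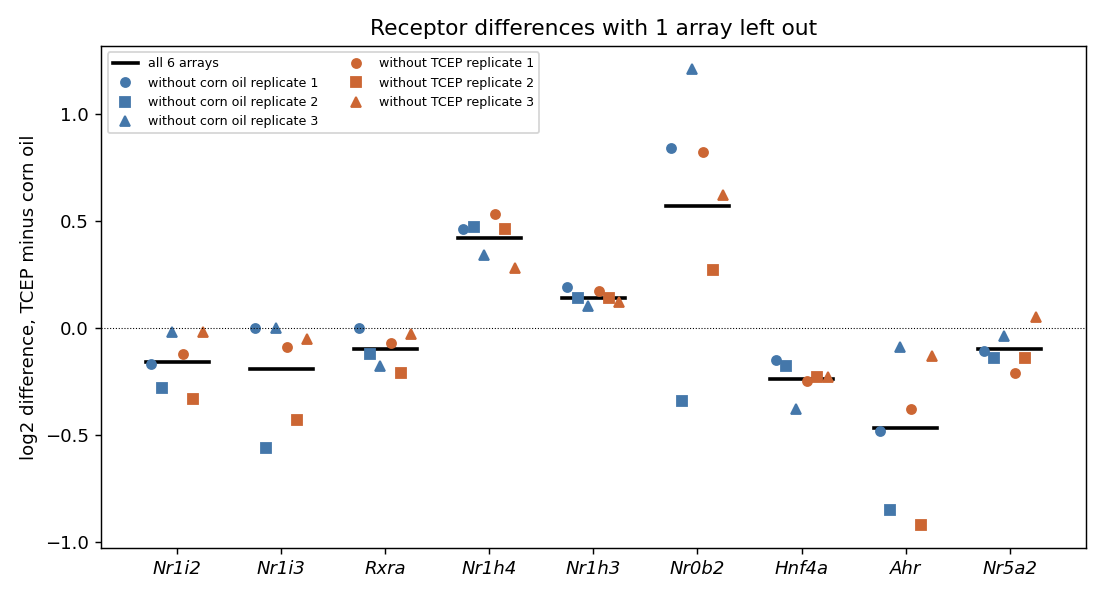
Difference between TCEP and corn oil on the log2 scale for each receptor gene over all 6 arrays (black bar) and with 1 array left out (blue markers for corn oil, orange for TCEP). Nr0b2 spans -0.34 to 1.21, while Nr1h4 stays between 0.28 and 0.53 and Nr1h3 between 0.10 and 0.19.

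Other nuclear receptors also had means on both sides of 0. Of 22 other nuclear receptors measured, 13 had a higher and 9 a lower mean, with a median of 0.05 that turned to -0.06 without corn oil replicate 2 and -0.01 without a filter, and 0 passed the adjusted threshold. Rarg, a retinoic acid receptor, had 0.86, 0.74 and 0.81 in corn oil and 0.37, 0.64 and 0.51 in TCEP. Its groups did not overlap, where 7.06% of all genes were lower without overlap. The difference of -0.30 ± 0.11 (SE) had an adjusted p of 0.523 (limma).

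Coregulators, which receptors recruit to open or close chromatin, had means on both sides of 0. Of 8 coactivators 3 had a higher and 5 a lower mean, with a median of -0.15. The groups of 1 higher and 2 lower genes did not overlap, where 10.3% of all genes were higher and 7.06% lower without overlap. The brightest were Smarca4, the helicase of a chromatin remodelling complex, at 0.18 ± 0.10 and the arginine methyltransferase Prmt1 at 0.16 ± 0.10 (SE). Ppargc1b, a coactivator of lipid and mitochondrial genes named after its values were seen, had the lowest difference at -0.49 ± 0.24 (SE), with groups that did not overlap and an adjusted p of 0.585 (limma). Of 9 corepressors 7 had a higher and 2 a lower mean, with a median of 0.08. The groups of 2 higher genes did not overlap, against the same 10.3% of all genes, and nothing is read from these counts. The histone deacetylase Hdac2 differed by 0.31 ± 0.19 (SE), and Nrip1, also named after its values were seen, by -0.34 ± 0.33 (SE). No coregulator was under an unadjusted p of 0.05.

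The cytosolic chaperones that hold CAR, AHR and ESR1 included both HSP90 genes, whose arrays separated by group. Hsp90ab1 read 6.44, 6.32 and 6.70 in corn oil and 6.09, 6.15 and 6.01 in TCEP, a difference of -0.40 ± 0.13 (SE). Hsp90aa1 read 6.45, 6.54 and 6.93 in corn oil and 6.08, 6.28 and 6.36 in TCEP, a difference of -0.40 ± 0.16 (SE). Every TCEP array lay below every corn oil array for both genes, as for 7.06% of all genes. The adjusted p was 0.503 and 0.533 (limma). Over the 12 measured genes of this list 5 had a higher and 7 a lower mean, with a median of -0.05 that turned to 0.01 with median centring and 0.02 without corn oil replicate 3. Of 17 liver-enriched transcription factors 10 had a higher and 7 a lower mean, with a median of 0.05. Among them the clock output factor Dbp differed by 0.39 ± 0.11 and Nfix by -0.33 ± 0.12 (SE).

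Most of the usual target genes of CAR and PXR had higher means in TCEP. The receptor messages differed by -0.16 ± 0.21 for Nr1i2 and -0.19 ± 0.36 (SE) for Nr1i3. Both lay within the spread between animals, so no direction is read from them. Of 29 measured targets 21 had a higher and 8 a lower mean, with a median of 0.53 against 0.00 over all genes. At an unadjusted p under 0.05 (limma), 15 were higher and 1 was lower, against 5.01% and 4.19% of all genes. For 15 targets the TCEP arrays lay all above the corn oil arrays, against 10.3% of all genes. The list was chosen with earlier results of these data known, so its excess over these shares is no test. None of the targets passed the adjusted threshold. The per-array median of the list, relative to the corn oil mean of each gene, was 0.10, -0.14 and 0.06 in corn oil and 0.35, 0.69 and 0.44 in TCEP. Without corn oil replicate 2 the median difference was 0.42, and 15 targets were higher at an unadjusted p under 0.05.

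The targets of CAR and PXR named here were taken partly for groups that did not overlap. Cyp2b2, a P450 enzyme that classically follows CAR, read 6.34, 5.03 and 5.86 in corn oil and 7.52, 6.97 and 7.18 in TCEP, a difference of 1.48 ± 0.34 (SE) with an adjusted p of 0.443 (limma). Cyp3a23-3a1, which classically follows PXR, differed by 1.28 ± 0.32 and Cyp2b1 by 0.75 ± 0.23 (SE). The smallest p-values of the list belonged to Cyp3a9 (1.13 ± 0.15), the efflux transporter Abcc3 (2.25 ± 0.33) and Cyp2c6v1 (0.72 ± 0.11, all SE), each with an adjusted p of 0.291 (limma). The groups of 14 of the 29 targets overlapped. Among those, named after their values were seen, Cyp3a18 differed by 0.10 ± 0.30, Ugt1a1 by 0.05 ± 0.18, Alas1 by -0.16 ± 0.43 and Por, the reductase that supplies P450 enzymes with electrons, by -0.40 ± 0.16 (SE). Cyp2b1 and Cyp2b2 are close relatives, and signal shared between their probes was not tested.

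Targets of the other receptors differed less. Of 4 measured AHR targets 2 had a higher and 2 a lower mean, the median of 0.11 turning to -0.13 without a filter on dim probes, with Ugt1a6 at 0.35 ± 0.17 and Cyp1a2 at -0.26 ± 0.19 (SE). Cyp1a1, the classical AHR response gene, had 0 of 3 arrays well above background in either group. Of 24 HNF4A targets 10 had a higher and 14 a lower mean, with a median of -0.03 that turned to 0.03 with median centring. For ESR1 targets the counts were 3 higher and 8 lower of 11, with a median of -0.02 that turned to 0.04 with median centring and without TCEP replicate 1. Socs3, an inhibitor of cytokine signalling, differed by -0.38 ± 0.11 (SE).

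Most bile acid genes under FXR, SHP and LRH-1 had lower means in TCEP by small amounts. Of 19 FXR and SHP targets 3 had a higher mean, Nr0b2 itself among them, and 16 a lower mean, with a median of -0.16, where 49.1% of all genes had a lower mean. The per-array medians were 0.09, -0.02 and 0.01 in corn oil and -0.23, -0.11 and -0.14 in TCEP. The 8 hepatocyte markers, which share Fgb with this list, had medians of -0.10, 0.02 and 0.04 in corn oil and -0.19, -0.06 and -0.12 in TCEP, and 6 of 8 had a lower mean, with a median difference of -0.12. Their part in the lower target means was not tested. Of 13 LRH-1 targets 2 had a higher and 11 a lower mean, with a median of -0.19, beside lower means of both measured pancreas markers, whose part was not tested. Of 15 LXR targets 5 were higher and 10 lower, with a median of -0.09. The lists share genes, among them Cyp7a1, and none of their genes passed the adjusted threshold.

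Cyp7a1, whose enzyme sets the pace of bile acid production, read 0.20, -0.49 and -0.43 in corn oil and -2.80, -0.92 and -2.22 in TCEP. All TCEP arrays lay below all corn oil arrays, as for 7.06% of all genes, and TCEP replicate 2 was the closest to corn oil. The difference was -1.74 ± 0.49 (SE), with an interval from -2.92 to -0.56, a limma p of 0.011 before adjustment and 0.481 after it. Glul, the glutamine synthetase of hepatocytes around the central vein, read 3.24, 3.11 and 3.47 in corn oil and 2.18, 2.57 and 2.41 in TCEP. The groups did not overlap, and the difference of -0.89 ± 0.15 (SE) had an adjusted p of 0.302 (limma).

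**Figure D5:**
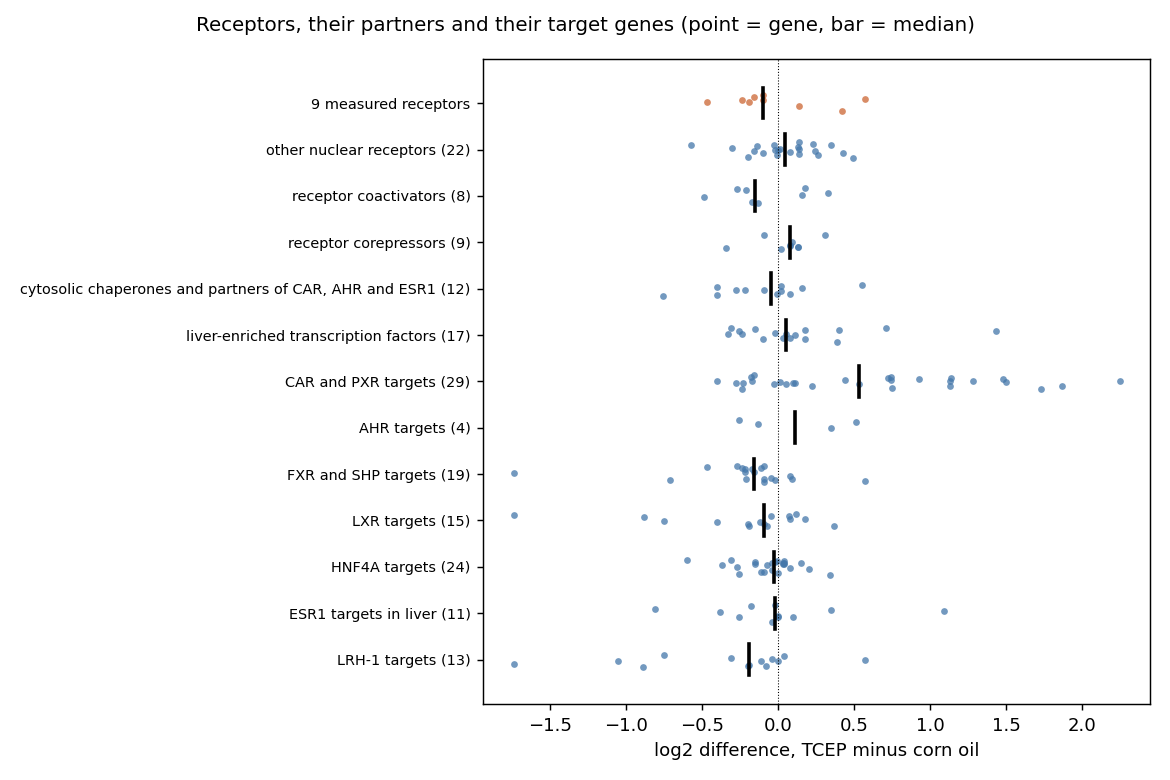
Difference between TCEP and corn oil on the log2 scale for each measured gene (points) of the receptors, in orange, and of the lists of partners and targets, in blue, with list medians as black bars and the number of genes in brackets. The median of the CAR and PXR targets is 0.53, while the medians of the other groups lie between -0.19 and 0.11.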

How the data were processed

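RNA of 6 rat livers was measured on 1-colour Agilent arrays. Per the file headers, the authors extracted spot intensity values with Feature Extraction version 10.7.1.1, which the submitters' processing notes give as Agilent Feature Extraction 10.7. The main column is a background-subtracted processed signal. The deposited value table holds a ratio, the processed signal over a divisor per array, read here as the array's 75th percentile. This ratio was found by setting the table against the scanner files. For signals over 100 both differed by at most 0.0004 log2 units, after each array's own median difference was taken out. That comparison shows a constant divisor within each array and cannot show its size. The column medians of the table ran from 0.0953 to 0.103, and genes were not centred. Any further normalization is not given in the sources used here.

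The processed signal was divided by its 75th percentile over the 61657 non-control probes of that array and taken to log2, with 64 outlier-flagged spots set to missing. Probes well above background in every array of either group were kept. Symbols came from a RefSeq table of GRCr8 through unversioned accessions, which named 27460 probes, and 34197 kept the name of the array design. The brightest kept probe stood for each of 27642 genes. Of these, 10982 had a symbol, and the rest went by their design name, so they may not all be separate genes. The array annotation names an older rat build, so no probe coordinates are given. The treatment label set the groups, and the titles gave the replicate numbers. TCEP and corn oil were compared with lmFit and eBayes as two-sided tests in limma 3.58.1 under R 4.3.3, adjusted by Benjamini-Hochberg over all genes at 0.05, and the fit was tested on simulated data. The members and gene lists were chosen with earlier results of these data known.

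Named were all receptor genes and, from each list, up to 3 genes with the smallest p among those under 0.05 with groups that did not overlap, or otherwise the 2 brightest, besides usual target genes and the 3 genes most alike in shape to Nr1i2, Nr1i3 and the most variable receptor gene. Alternatives were quantile normalization, median centring, normexp with an offset of 50 on median signals, the deposited table, no filter and a stricter filter, the mean over probes, single probes, trend and robust eBayes, slide as a random block, a replicate block, keeping flagged spots, and omitting each array in turn. The slide block cannot separate slide from treatment, because no slide held both groups.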

Additional observations from a re-analysis of the deposited data

How the results depend on the processing

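No receptor gene and no other gene passed the adjusted threshold under any of 18 alternatives, whose smallest adjusted p lay between 0.06 and 0.744 (limma); in the main fit 2543 genes were under an unadjusted p of 0.05. That count was 1640 to 3223 with 1 array left out, the lowest without TCEP replicate 3. The count of receptor genes under an unadjusted p of 0.05 was 0 with quantile normalization, normexp, no filter and the replicate block, and 0 to 1 with 1 array left out. The replicate block gave 1901 genes at that level. Same-numbered arrays correlated at -0.05, -0.16 and -0.02 in their deviations from the group means, so the numbers were not taken as pairs. Among genes at that level 54.4% were higher in the main fit, 76.2% with median centring and 37.9% without a filter.

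The sign reversed for 4 of 9 receptor genes under at least 1 alternative, and the cause was not tested. It did not for Ahr, Nr1h3, Nr1h4, Nr1i2 and Rxra, although with 1 array left out Rxra ranged from -0.21 to 0.00 and Nr1i2 from -0.33 to -0.02. The mean over probes gave 0.01 for Hnf4a. Normexp gave 0.01 for Nr5a2, 0.08 for its second probe and 0.03 for Cited2. Median centring gave 0.02 for the dimmer Nr1i2 probe, 0.02 for the second Nr5a2 probe, 0.05 for Cited2 and 0.04 for Ttr, which was at 0.00 with quantile normalization and 0.06 with the mean over probes. Quantile normalization gave -0.06 for Ctbp1. With 1 array left out, differences ranged from -0.34 to 1.21 for Nr0b2, -0.56 to 0.00 for Nr1i3, -0.64 to 0.05 for 1 of its dimmer probes, -0.21 to 0.05 for Nr5a2, -0.14 to 0.14 and -0.22 to 0.12 for its other probes, -0.16 to 0.06 for the dimmer Nr1i2 probe and -0.13 to 0.34 for the second Hnf4a probe. They ranged from -0.26 to 0.06 for Bach1, -0.15 to 0.80 for Camk2n1, -0.34 to 0.17 for Cited2, -0.02 to 0.04 for Ctbp1, -0.51 to 0.01 for Fasn, -0.20 to 0.79 for Ppara, -0.10 to 1.51 for Psat1 and -0.06 to 0.01 for Ttr. Leaving out corn oil replicate 2 is the same as keeping the first scan day. A signal near background limits Esr1.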
